A study of Homo sapiens with 6 samples.

Results

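The HOX genes are 38 protein-coding rows of the deposited count table, taken as every gene whose symbol is HOX, a cluster letter from A to D and a paralogue number, out of 17081 rows in all. They comprise 11 genes of the HOXA cluster, 9 of HOXB, 9 of HOXC and 9 of HOXD. RNA was measured in 6 tumour samples of DMS114, a human cell line from a small cell lung cancer, grown in a model in which the tumour invades the sciatic nerve. The labels put 3 samples in the distal invaded region and 3 in the proximal one. No treatment, genotype or time sets the regions apart in the labels, and no species, strain or age of the host is given in the sources used here. Whether the 3 samples of a region are from 3 animals is not stated, so the p-values measure only the spread among these samples, and that spread may be technical.

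HOX genes encode homeodomain transcription factors that give cells their position along the head-to-tail axis and, in limbs, from shoulder or hip to digit. In each cluster the genes lie in order on the chromosome, all read from the same strand, and low paralogue numbers act towards the head while high numbers act towards the tail. HOX proteins bind DNA together with PBX and MEIS homeodomain partners, Polycomb complexes keep a cluster silent, and Trithorax complexes with KMT2A and menin keep it active. Adult cells and tumours often keep part of the HOX code of the tissue they came from.

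The distal libraries held 22849866, 24217043 and 16171106 counts, and the proximal libraries 26116191, 21865148 and 22066179. Library distal 3 stood apart from the others. It was the highest of the 6 libraries for 26.9% of all 13382 genes tested and the lowest for 25.4%. The 24 skeletal muscle markers summed to 24.8, 47.7 and 2833 CPM (reads relative to library size, scaled by the trimmed mean of M values) in distal tumour, against 28.7, 62.0 and 411 in proximal tumour. The 12 fibroblast and perineurium markers summed to between 4664 and 6233 CPM, and the 13 Schwann cell and myelin markers to between 97.7 and 193 CPM, although S100B, which marks Schwann cells, was at 0.0412 CPM in one library and at 0 in the other 5. The 7 endothelial markers reached at most 2.87 CPM together and the 10 immune markers at most 5.98 CPM. Of the markers set for the labelled cell type, the lung regulator NKX2-1 was at 0.416 CPM or less, whereas SYP, a neuroendocrine vesicle protein, was read at 56.9 to 63.9 CPM. In a bulk tumour sample, fewer cells of a type and less RNA per cell cannot be told apart.

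Most HOX genes were read in these tumours at low to moderate level. At least 1 count stood in every library for 36 of the 38 genes and at least 10 counts in every library for 29. A mean of at least 1 CPM was reached by 31 genes and a mean of at least 10 CPM by 12. Together the 38 genes took 4697, 4571 and 7352 counts in distal tumour, against 6815, 6359 and 4539 in proximal tumour. The summed level was 207, 188 and 449 CPM in distal tumour and 264, 294 and 204 CPM in proximal tumour. Distal 3 was the highest and distal 2 the lowest, and the proximal libraries lay between them. The sum averaged 281 ± 145 CPM in distal and 254 ± 45.7 CPM in proximal tumour (SD, n = 3 each), or 198 CPM in distal tumour without distal 3.

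**Figure D1:**
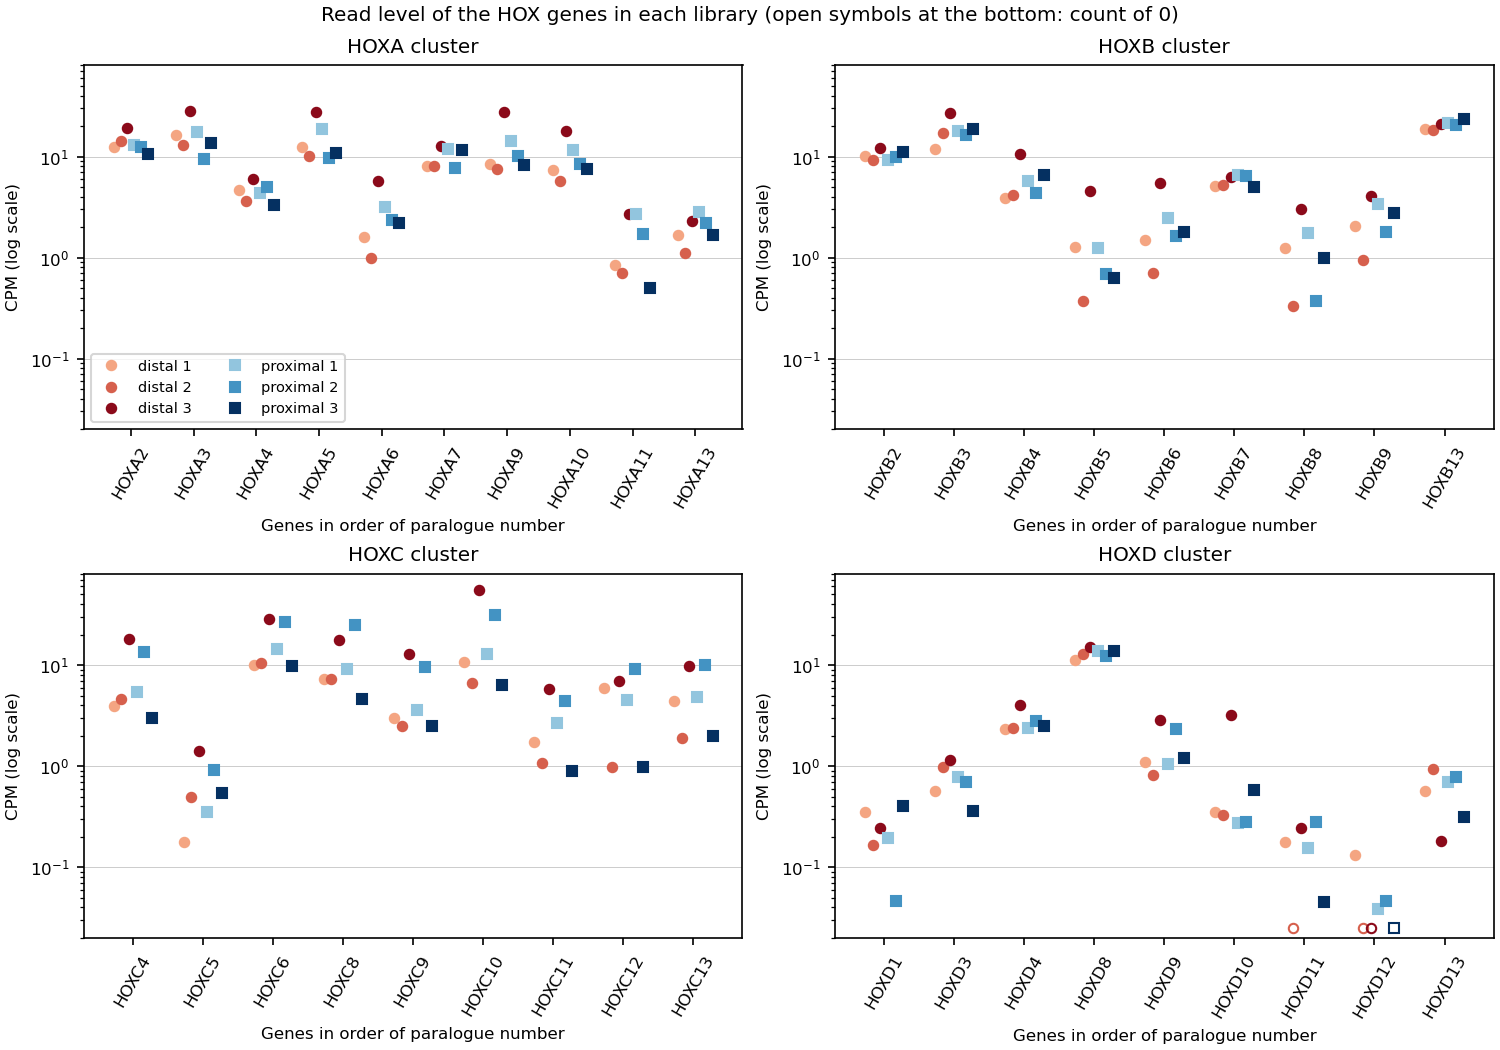
Read level of the HOX genes reported here (CPM, log scale) in the 6 libraries, by cluster and in order of paralogue number, with circles for distal and squares for proximal libraries and open symbols for a count of 0. HOXB13 sits within 18.4 to 23.6 CPM in every library, while each HOXC gene spans 2.92-fold to 9.16-fold from its lowest to its highest library.

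Genes were set against each other per length, as CPM per kilobase of summed GENCODE exon, with the mean and SD over all 6 libraries. HOXC10 led at 8.79 ± 8.27, followed by HOXA5 at 8.72 ± 4.15, HOXC8 at 6.29 ± 4.14, HOXB13 at 5.95 ± 0.537 and HOXA2 at 5.54 ± 1.20. HOXD8 (5.02 ± 0.516), HOXC6 (4.71 ± 2.47), HOXB2 (4.41 ± 0.488) and HOXA9 (4.19 ± 2.54) were also among the first 10. These genes did not differ from their neighbours in the order beyond their SD, and the order depends on the length used. HOXB13 came first by CPM alone or per coding length. HOXA7 came first per length of exon that no other gene overlaps. That measure divides all reads of a gene by the shorter length, so it raises genes with large overlaps. For HOXA7 the overlap is 62.5% of the exon length. The low end held 3 HOXD genes, HOXD1 at 0.119, HOXD11 at 0.0709 and HOXD12 at 0.0269 CPM per kilobase. Summed by paralogue number, the level was 11.9 for group 8, 11.7 for group 10 and 9.95 for group 2, while groups 11 and 12 had 1.58 and 1.45 CPM per kilobase. Head-end, trunk and tail-end numbers were thus read side by side, with group 13 at 8.87 CPM per kilobase, most of it HOXB13.

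The clusters also hold microRNA genes, whose levels were not analysed here. Their mature sequences are shown because microRNAs of the miR-196 and miR-10 families pair with HOX messages. The sequences are from RefSeq (GRCh38.p14), 5′ to 3′, with the seed (bases 2 to 8) in capitals. The miR-196a sequence is encoded at 2 places, chr17:48632532-48632553 on the minus strand inside HOXB and chr12:53991762-53991783 on the plus strand inside HOXC, miR-196b at chr7:27169528-27169549 on the minus strand inside HOXA, and miR-10a at chr17:48579904-48579926 on the minus strand inside HOXB.
hsa-miR-196a-5p: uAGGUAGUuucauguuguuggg
hsa-miR-196b-5p: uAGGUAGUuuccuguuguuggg
hsa-miR-10a-5p: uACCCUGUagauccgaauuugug
Both miR-196 members share the seed AGGUAGU. Its reverse complement, ACTACCT as DNA, stood in the longest GENCODE 3′ UTR of 8 of the 38 HOX genes (21.1%), against 1263 of 16318 protein-coding genes (7.74%), although the median UTR was shorter for HOX genes, at 866 bases against 1273. Among them were HOXA5, HOXA7, HOXA9, HOXB6, HOXB7, HOXB13 and HOXC8. That of the miR-10a seed, ACAGGGT, stood in 3 of 38 (7.89%; among them HOXA3 and HOXB3), against 13.9% of all genes. The site with the most pairs in HOXA7 (chr7:27154430-27154451, minus strand) has 15 Watson-Crick and 2 G:U pairs with miR-196a when laid along it without gaps, and one of the HOXC8 sites (chr12:54012231-54012252, plus strand) has 12 and 2. Capitals mark the seed match.
HOXA7 site: cctactcccctaaaACTACCTa
HOXC8 site: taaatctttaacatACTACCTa
A match is a description of the letters only, and genes with it were among both the steadiest and the most variable HOX genes below: the highest over the lowest library was 1.28 for HOXB13 and 7.76 for HOXB6.

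None of the HOX genes tested was called between the distal and the proximal region. In edgeR's quasi-likelihood test over the whole table, 0 of the 34 HOX genes tested had an adjusted p (Benjamini-Hochberg over 13382 genes) under 0.05, beside 0.00% of all genes, and the smallest adjusted p of a HOX gene was 0.9997. At an unadjusted p under 0.05 the count was again 0, against 1.33% of all genes, 0.665% in each direction. DESeq2 and limma-voom also called 0 HOX genes, and over the whole table they called 1 gene and 0 genes. In no HOX gene did the 3 distal libraries all lie on one side of the 3 proximal ones, whereas the groups did not overlap for 6.28% of all genes tested, 3.20% higher and 3.09% lower in distal tumour. The log2 fold change, distal minus proximal, was positive for 22 HOX genes and negative for 12, beside 51.6% positive among all genes. Its median was 0.12 over the HOX genes and 0.00451 over all genes. Without distal 3 the HOX median was -0.45, so its sign rests on that library.

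The precision of the comparison differed between genes. The 95% interval lay within a 2-fold change in either direction for 10 of the 34 genes tested. HOXB13 had a log2 fold change of -0.17 (SE 0.12, interval -0.44 to 0.09), and HOXD8 one of -0.02 (SE 0.16, interval -0.37 to 0.33). HOXC10, at 0.51, had an SE of 1.12 and an interval from -2.53 to 3.54. With so wide an interval a difference in HOXC10 was not detectable here, although its reads were far above the limit of detection in every library. The genes not tested were HOXD1, HOXD10, HOXD11 and HOXD12, which fell below the count filter.

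**Figure D2:**
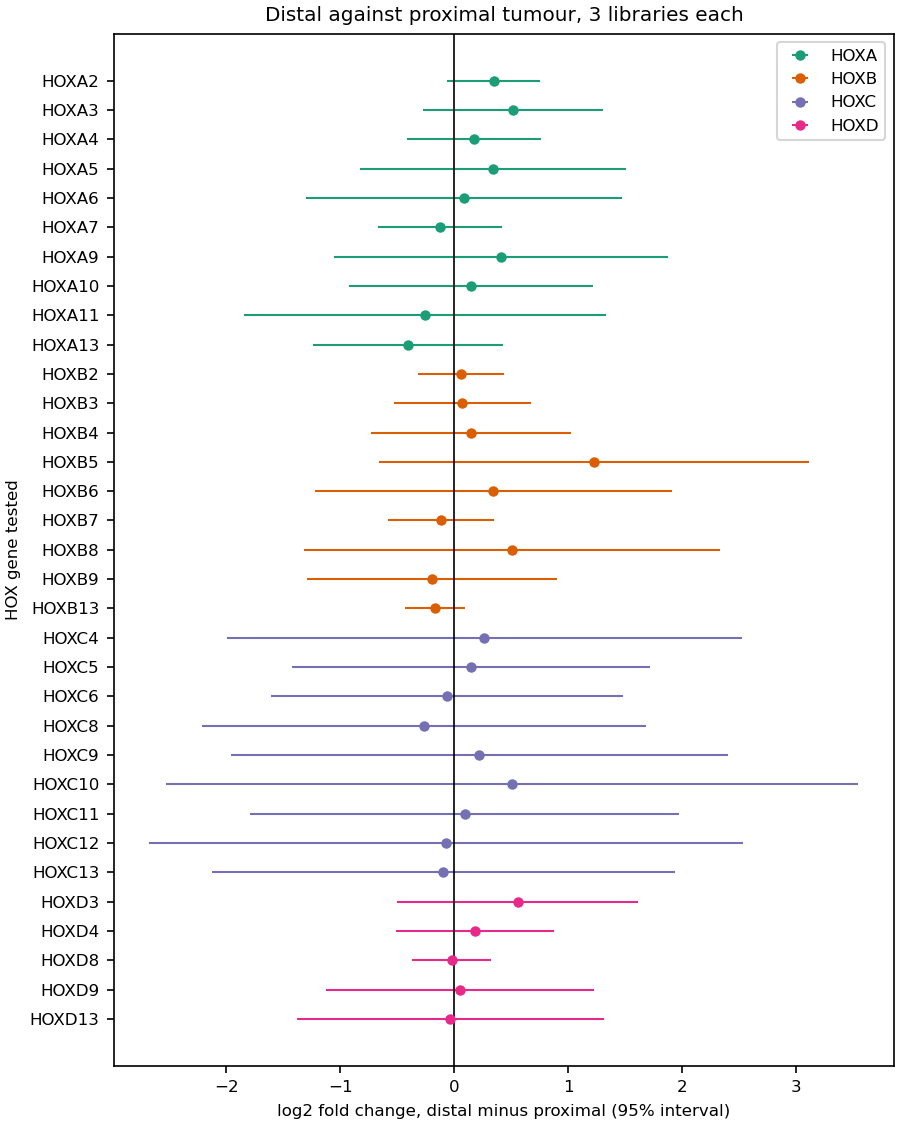
Log2 fold change of the HOX genes tested and reported here, distal minus proximal (points, coloured by cluster), with 95% intervals from edgeR (lines). Every interval drawn includes 0, and the intervals of the HOXC genes are wider than those of HOXB13, HOXB2 and HOXD8.

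In the HOXA cluster (chromosome 7), all 11 genes were tested, 8 with a positive and 3 with a negative log2 fold change, with a median of 0.16 and a range from -0.41 to 0.51. The cluster summed to 86.8, 77.2 and 172 CPM in distal tumour, against 117, 81.2 and 83.0 CPM in proximal tumour. Distal 3 was the highest library and proximal 1 the next. These were the highest pair for 9 of 11 HOXA genes, against 6.48% of all genes tested. HOXA2, which specifies the second pharyngeal arch, had 12.4, 14.1 and 19.2 CPM in distal tumour, against 13, 12.3 and 10.6 CPM in proximal tumour. It had the smallest unadjusted p of any HOX gene, 0.0905 in edgeR's quasi-likelihood test, with a log2 fold change of 0.34 (SE 0.18, 95% interval -0.07 to 0.75). Proximal 1 lay above distal 1, so the groups overlapped. HOXA3, needed for thymus and parathyroid formation in the mouse, had 16.5, 13.1 and 28.1 CPM in distal tumour, against 17.3, 9.37 and 13.5 CPM in proximal tumour. The log2 fold change of HOXA3 came to 0.51 (SE 0.33, 95% interval -0.28 to 1.30), and proximal 1 again exceeded distal 1 and distal 2.

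The middle HOXA genes were also highest in distal 3. HOXA5, which the mouse needs for lung and airway development, had 12.4, 10.1 and 27.5 CPM in distal tumour, against 18.9, 9.56 and 10.8 CPM in proximal tumour, a log2 fold change of 0.34 (SE 0.47, 95% interval -0.83 to 1.5). Without distal 3 it turned to -0.22. HOXA4 had 4.71, 3.63 and 5.92 CPM in distal tumour, against 4.37, 4.94 and 3.32 CPM in proximal tumour. HOXA6 had 1.59, 0.989 and 5.74 CPM in distal tumour, against 3.13, 2.36 and 2.2 CPM in proximal tumour. HOXA4 was lowest in proximal 3 and HOXA6 in distal 2. HOXA7, which acts in the trunk, had 7.97, 7.99 and 12.8 CPM in distal tumour, against 12, 7.67 and 11.5 CPM in proximal tumour, with a log2 fold change of -0.12 (SE 0.24, 95% interval -0.67 to 0.42), but 62.5% of its exon length overlaps another gene. Distal 3, proximal 1 and proximal 3 lay together above the other three.

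Of the tail-end HOXA genes, HOXA9, a regulator of blood progenitors that is active in acute leukaemias, had 8.42, 7.54 and 27.7 CPM in distal tumour, against 14.1, 10.2 and 8.26 CPM in proximal tumour, a log2 fold change of 0.41 (SE 0.58, 95% interval -1.06 to 1.88) that turned to -0.45 without distal 3. HOXA10, which acts in the uterus and hind limb, had 7.31, 5.77 and 18 CPM in distal tumour, against 11.7, 8.5 and 7.55 CPM in proximal tumour. Distal 3 was the highest and distal 2 the lowest library for both genes, so the 2 ends of the range came from distal tumour. HOXA11, a gene of the limb and kidney, had 0.837, 0.70 and 2.69 CPM in distal tumour, against 2.71, 1.71 and 0.494 CPM in proximal tumour. HOXA13, a gene of the digits and the urogenital tract, had 1.67, 1.11 and 2.32 CPM in distal tumour, against 2.82, 2.22 and 1.66 CPM in proximal tumour. The log2 fold change was -0.26 (SE 0.69, 95% interval -1.84 to 1.33) for HOXA11, where it lay between -1.10 and 0.32 with a library left out, positive without proximal 1, distal 1 or distal 2. It was -0.41 (SE 0.37, 95% interval -1.24 to 0.43) for HOXA13. In HOXA13, proximal 1 was the highest library, and in HOXA11 it was level with distal 3.

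The promoter of HOXA2 is shown because it was the only one of the HOX windows used that held a match to both partner motifs. It is the RefSeq window from 250 bases before to 50 bases after the gene start (chr7:27102634-27102933, minus strand, GRCh38.p14), 5′ to 3′, with motif matches in capitals.
HOXA2 promoter: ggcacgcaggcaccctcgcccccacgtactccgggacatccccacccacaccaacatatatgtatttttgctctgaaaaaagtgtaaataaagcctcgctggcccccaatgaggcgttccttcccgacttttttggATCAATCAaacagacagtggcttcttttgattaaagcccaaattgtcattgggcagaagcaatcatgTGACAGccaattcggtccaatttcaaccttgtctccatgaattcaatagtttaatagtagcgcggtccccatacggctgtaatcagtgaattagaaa
The motifs, searched on both strands, were TGATNNAT for a PBX and HOX pair and TGACAG for MEIS, which do not overlap here. Windows of 19 of the 38 genes were used, 26 in all. The first motif stood in 2 of 26 windows (7.69%; HOXA2 and HOXD11) against 7.4% of 35116 windows of all genes, and the second in 4 of 26 (15.4%; HOXA2, HOXA4, HOXA13 and HOXD4) against 15.8%. These shares are near those of all genes. CG pairs had a median of 22.5 per HOX window (range 0 to 44) against 14 over all windows.

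In the HOXB cluster (chr17:48542655-48728750, GRCh38) all 9 genes were tested, 6 with a positive and 3 with a negative log2 fold change, with a median of 0.07. The cluster summed to 56.0, 56.4 and 93.5 CPM in distal tumour, against 69.8, 62.1 and 70.9 CPM in proximal tumour. The proximal libraries lay within the range of the distal ones. HOXB13, a gene of the tail bud and the prostate that lies 98.4 kb from HOXB9, had 18.9, 18.4 and 20.9 CPM in distal tumour, against 21.4, 20.6 and 23.6 CPM in proximal tumour. It was the highest HOXB gene per length and the steadiest HOX gene over the libraries, with a highest value 1.28 times the lowest. HOXB2, which acts in the hindbrain, had 10.2, 9.23 and 12.2 CPM in distal tumour, against 9.32, 9.79 and 11.1 CPM in proximal tumour. HOXB7, a trunk gene, had 5.11, 5.19 and 6.23 CPM in distal tumour, against 6.54, 6.42 and 4.94 CPM in proximal tumour. Both varied by only 1.32-fold from the lowest to the highest library, and the log2 fold change of HOXB7 was -0.12 (SE 0.21, 95% interval -0.58 to 0.35).

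The other HOXB genes were highest in distal 3. HOXB3 had 11.9, 17.1 and 26.7 CPM in distal tumour, against 17.9, 16.4 and 18.5 CPM in proximal tumour. HOXB4, which promotes self-renewal of blood stem cells, had 3.92, 4.2 and 10.5 CPM in distal tumour, against 5.76, 4.34 and 6.56 CPM in proximal tumour. HOXB5, a gene of the neural crest that forms the gut's nerve cells, had 1.28, 0.371 and 4.52 CPM in distal tumour, against 1.24, 0.693 and 0.629 CPM in proximal tumour. The fold change of HOXB5 was the largest of any HOX gene tested, at 1.22 (SE 0.81, 95% interval -0.66 to 3.11), yet distal 2 was its lowest library and the value without distal 3 was -0.07. HOXB6 had 1.5, 0.70 and 5.43 CPM in distal tumour, against 2.48, 1.62 and 1.8 CPM in proximal tumour. HOXB8, which acts in myeloid progenitors in the mouse, had 1.23, 0.33 and 2.99 CPM in distal tumour, against 1.74, 0.369 and 0.988 CPM in proximal tumour. HOXB9, which shapes the ribs in the mouse, had 2.07, 0.948 and 4.03 CPM in distal tumour, against 3.4, 1.8 and 2.74 CPM in proximal tumour. In all 3 genes distal 3 was the highest and distal 2 the lowest library, with proximal tumour inside that range. The log2 fold change of HOXB9 was -0.19 (SE 0.49, 95% interval -1.29 to 0.90), and it turned to 0.19 without distal 2 and to 0.03 without proximal 1.

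In the HOXC cluster (chr12:53938831-54056030) the 9 genes shared their pair of highest libraries, 1 from each group. The cluster summed to 47.3, 36.0 and 156 CPM in distal tumour, against 57.6, 131 and 30.7 CPM in proximal tumour, so that both groups held low and high libraries. The mean was 79.8 ± 66.3 CPM in distal and 73.1 ± 51.8 CPM in proximal tumour (SD, n = 3 each). Without distal 3 the other 5 libraries still differed by up to 4.27-fold. Distal 3 and proximal 2 were the highest pair for 9 of 9 HOXC genes, against 11% of all genes tested. Distal 2 and proximal 3 were the lowest pair for 6 of 9, against 8.06% of all genes. The HOXC share of all HOX counts was 22.9% (exact binomial 95% interval 21.7% to 24.1%), 19.1% (18.0% to 20.3%) and 34.8% (33.7% to 35.9%) in distal tumour, against 21.9% (20.9% to 22.9%), 44.6% (43.3% to 45.8%) and 15.1% (14.02% to 16.12%) in proximal tumour. These intervals cover counting error only. All 9 genes were tested, 5 with a positive and 4 with a negative log2 fold change, with a median of 0.09 and a range from -0.27 to 0.51.

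HOXC10, a gene of the lumbar spinal cord and hind limb in the mouse, had 10.8, 6.63 and 55 CPM in distal tumour, against 12.8, 31.4 and 6.29 CPM in proximal tumour. Its highest library was 8.75 times its lowest, and proximal 3 and distal 2 lay nearly level at the bottom. HOXC8, a trunk gene that also sets motor pools of the forelimb in the mouse, had 7.36, 7.33 and 17.7 CPM in distal tumour, against 9.21, 25 and 4.67 CPM in proximal tumour. HOXC9, which sets the motor columns of the thoracic cord in the mouse, had 3.0, 2.51 and 12.8 CPM in distal tumour, against 3.56, 9.51 and 2.52 CPM in proximal tumour. HOXC6, a thoracic gene, had 10.05, 10.5 and 28.6 CPM in distal tumour, against 14.3, 26.9 and 9.79 CPM in proximal tumour. In HOXC8 the highest library was proximal 2, and in HOXC6 and HOXC9 it was distal 3. HOXC4 had 3.92, 4.61 and 18 CPM in distal tumour, against 5.42, 13.5 and 3.01 CPM in proximal tumour. HOXC5, near the detection limit of these libraries, had 0.176, 0.494 and 1.4 CPM in distal tumour, against 0.348, 0.924 and 0.539 CPM in proximal tumour. The highest library of HOXC4 was 5.97 times the lowest.

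The tail-end HOXC genes were high in the same 2 libraries. HOXC11 had 1.72, 1.07 and 5.86 CPM in distal tumour, against 2.67, 4.43 and 0.898 CPM in proximal tumour. HOXC12 had 5.9, 0.989 and 7.02 CPM in distal tumour, against 4.49, 9.05 and 0.988 CPM in proximal tumour. HOXC13, which hair and nails require, had 4.41, 1.9 and 9.71 CPM in distal tumour, against 4.88, 10.1 and 1.98 CPM in proximal tumour. In HOXC12 and HOXC13 proximal 2 was the highest library, and distal 2 and proximal 3 were level at the bottom. HOXC12 spanned 9.16-fold, and distal 1, at the middle or lower end for the head-end HOXC genes, lay close to distal 3 for HOXC12.

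**Figure D3:**
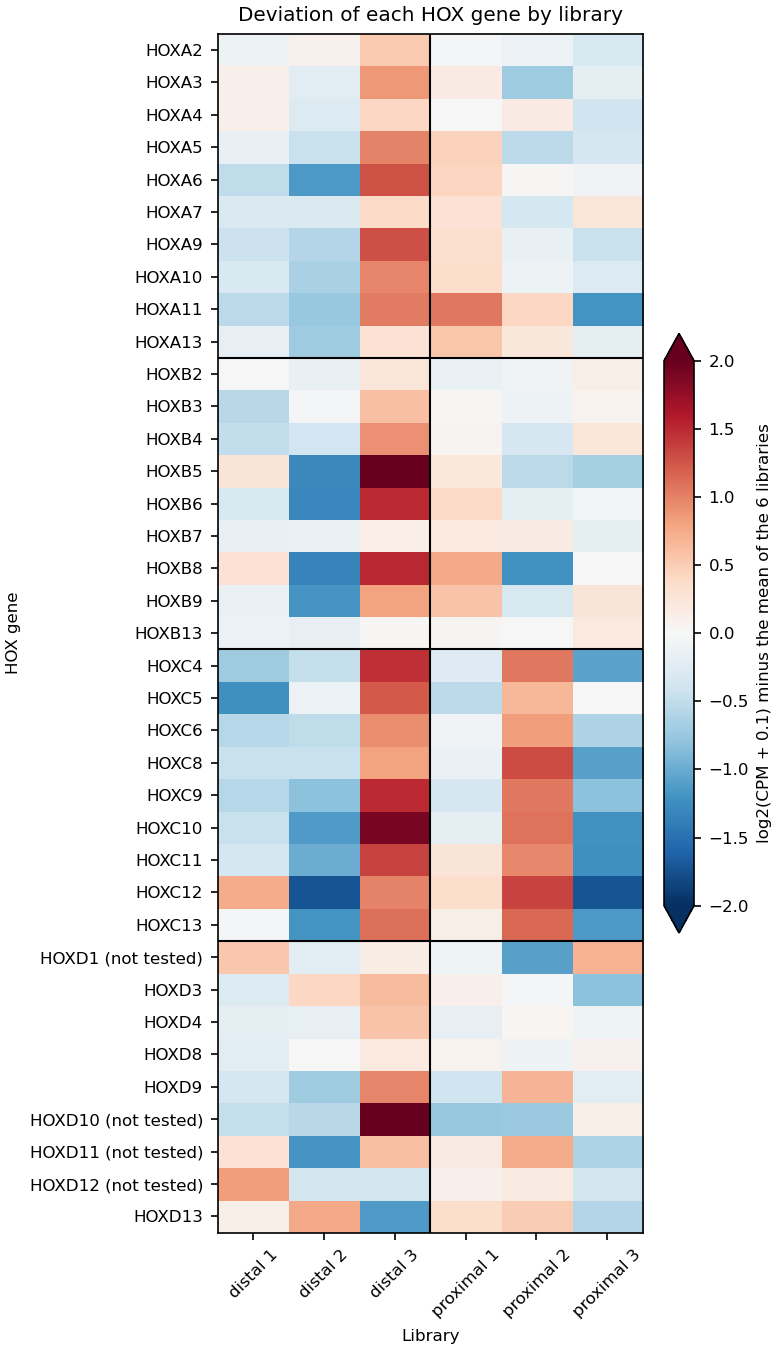
Log2(CPM + 0.1) of the HOX genes reported here (rows, by cluster) in each library (columns, distal left of proximal) as the difference from the gene's mean over the 6 libraries. The HOXC rows are high in distal 3 and proximal 2, and distal 2 and proximal 3 are the lowest pair in 6 of 9 of them, while HOXB13, HOXB2, HOXB7 and HOXD8 are pale throughout.

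HOXC4, HOXC5 and HOXC6 share their start in RefSeq (chr12, base 54016888) and part of their exons, so reads of shared exons could have been split, dropped or counted for any of them. The shared window is shown because the genes that begin there were all highest in distal 3 and next in proximal 2. It runs from 250 bases before to 50 bases after that start (chr12:54016638-54016937, plus strand, GRCh38.p14) and is the same for HOXC4 and HOXC5 in the table. Capitals mark its 15 CG pairs, and it holds neither partner motif.
HOXC4 and HOXC5 promoter: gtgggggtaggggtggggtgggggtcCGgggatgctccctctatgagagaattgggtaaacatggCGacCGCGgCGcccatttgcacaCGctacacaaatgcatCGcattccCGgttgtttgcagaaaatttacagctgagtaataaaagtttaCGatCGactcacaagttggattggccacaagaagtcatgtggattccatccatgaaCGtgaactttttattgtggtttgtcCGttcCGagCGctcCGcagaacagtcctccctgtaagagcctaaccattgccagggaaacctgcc
HOXC8, HOXC10, HOXC11, HOXC12 and HOXC13 have no exon in common with another HOX gene and were highest in the same libraries.

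In the HOXD cluster (chr2:176087487-176190907) 5 of 9 genes were tested, 3 with a positive and 2 with a negative log2 fold change, with a median of 0.05. The cluster summed to 16.8, 18.7 and 27.1 CPM in distal tumour, against 19.3, 19.5 and 19.3 CPM in proximal tumour. It was the lowest of the clusters in every library. HOXD8 carried most of it, with 11.2, 13 and 15.1 CPM in distal tumour, against 13.7, 12.3 and 13.9 CPM in proximal tumour, and its highest library was 1.35 times its lowest. HOXD4 had 2.34, 2.39 and 4.03 CPM in distal tumour, against 2.4, 2.77 and 2.52 CPM in proximal tumour. HOXD9, which acts in the limb and lumbar cord, had 1.1, 0.824 and 2.87 CPM in distal tumour, against 1.04, 2.31 and 1.21 CPM in proximal tumour. HOXD9 was high in distal 3 and proximal 2, as the HOXC genes were. HOXD3 had 0.573, 0.989 and 1.16 CPM in distal tumour, against 0.774, 0.693 and 0.359 CPM in proximal tumour, with a log2 fold change of 0.56 (SE 0.48, 95% interval -0.50 to 1.61), but 74.1% of its exon length and 80.5% of that of HOXD4 overlap another gene, so both are uncertain.

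The remaining HOXD genes were near the limit of detection. HOXD10, a gene of the hind limb and its motor neurons, had 8, 8 and 53 counts in distal tumour, against 7, 6 and 13 in proximal tumour. The 53 counts of distal 3, or 3.24 CPM, stood alone, since the other 5 libraries held 0.271 to 0.584 CPM. HOXD13, which forms the digits, had 0.573, 0.948 and 0.183 CPM in distal tumour, against 0.696, 0.785 and 0.314 CPM in proximal tumour, and was lowest in distal 3, against the run of the other genes. HOXD1 lay between 0.0462 and 0.404 CPM. HOXD11, a gene of the forearm, had 4, 0 and 4 counts in distal tumour, against 4, 6 and 1 in proximal tumour. HOXD12 had 3, 0 and 0 counts in distal tumour, against 1, 1 and 0 in proximal tumour. A count of 0 allows up to 0.124 CPM in distal 2, 0.183 CPM in distal 3 and 0.135 CPM in proximal 3 (3 counts, counting error only).

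Within-group spread was large for most HOX genes. The biological coefficient of variation (BCV, the spread between libraries of one group beyond counting error, from edgeR) lay above that of the median gene for 33 of the 34 tested and in the top 10% of all genes for 22. The median HOX gene stood at percentile 95.5 of the dispersion (BCV squared) of all genes tested. Dispersion falls with read level, so genes were also ranked by their dispersion divided by the trend at their level. By that ratio the median HOX gene stood at percentile 94.9 of all genes tested. By cluster the median percentile among all genes was 87.9 for HOXA, 90.5 for HOXB, 98.6 for HOXC and 90.7 for HOXD. The lowest HOXC gene stood at 97.3. Relative to the trend the cluster medians were 95.4 for HOXA, 92.9 for HOXB, 98.65 for HOXC and only 64.6 for HOXD. On that measure HOXB13 (11.3), HOXB7 (19.6), HOXB2 (25.6), HOXD8 (28.2) and HOXD4 (39.9) lay below the median gene. The median BCV was 65.9% for HOXC, 32.7% for HOXA, 34.8% for HOXB and 35.0% for HOXD. In 34 of 34 genes the SD of log2 CPM over the 6 libraries exceeded that of counting alone, as in HOXC10, at 1.25 against 0.0684, and HOXB13, at 0.129 against 0.0681. No test stands behind these percentiles, which describe the 6 libraries.

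Part of the spread outside HOXC came from distal 3, and HOXC stayed at the top without it. Distal 3 was the highest library for 26 of the 34 HOX genes tested, against 26.9% of all genes, and distal 2 was the lowest for 14 and proximal 3 for 11, against 11.6% and 17.7% of all genes. Without distal 3 the median percentile relative to the trend was 98.6 for HOXC and 67.2 for the other HOX genes, against 91.6 with it. The highest over the lowest library was 3.23 for the median tested HOX gene with over 3 counts in every library (n = 33), and over 3 for 18 of them (54.5%), against a median of 1.34 and 7.35% over all 13219 such tested genes. The exceptions were HOXB13, HOXB2, HOXB7 and HOXD8, which stayed under 1.5. This ratio includes counting error, and the genes compared were not matched for read level. Per cluster sum, the highest over the lowest library was 5.09 for HOXC, 2.23 for HOXA, 1.67 for HOXB and 1.61 for HOXD, or 4.27, 1.52, 1.27 and 1.16 without distal 3.

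**Figure D4:**
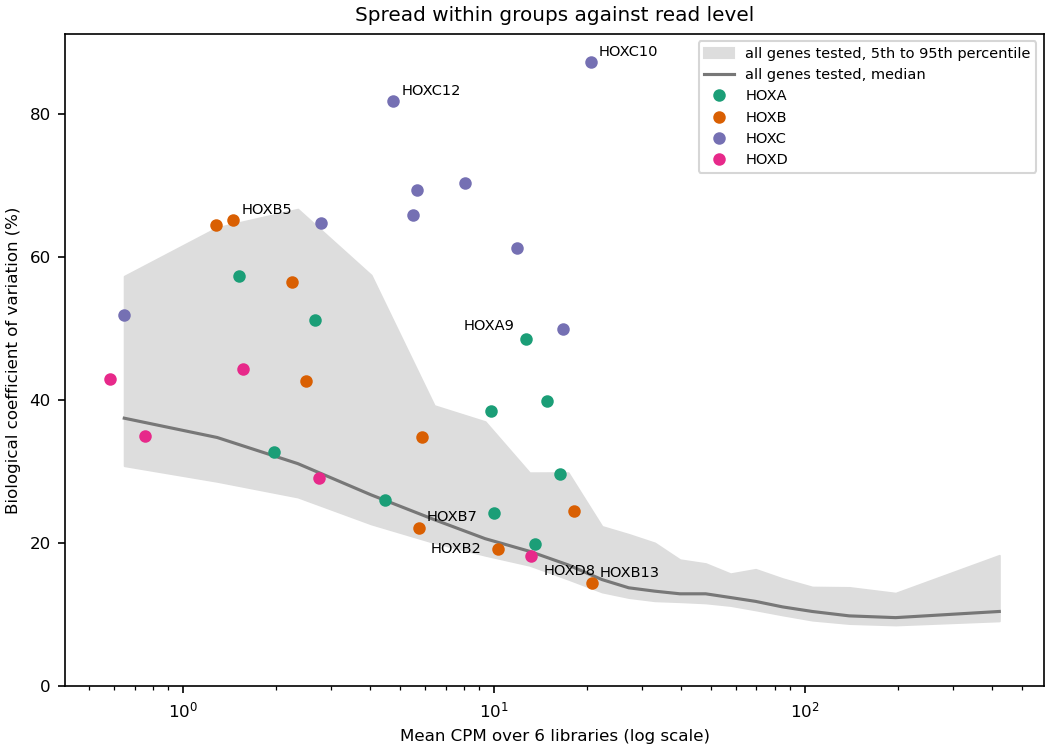
BCV of the HOX genes tested and reported here (%) against their mean level over the 6 libraries (CPM, log scale), coloured by cluster, with the median (line) and the 5th to 95th percentile (grey band) of all genes tested in 20 bins of level. HOXC10, at 87.2%, and most HOXC genes lie above the band, and HOXB13, at 14.4%, lies within it.

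Muscle reads were highest in distal 3, where 26 HOX genes peaked, and next in proximal 3, where the HOXC sum was lowest at 30.7 CPM. Proximal 2, with a HOXC sum of 131 CPM, had 62.0 CPM of muscle markers. The 8 limb patterning genes summed to 50.4, 50.8 and 88.1 CPM in distal tumour, against 58.2, 57.8 and 58.7 CPM in proximal tumour. Among them TBX4, a regulator of hind limb identity, was at 0.661, 0.742 and 3.42 CPM in distal tumour, against 1.20, 1.66 and 0.584 CPM in proximal tumour. TBX4 was thus highest in distal 3 and next in proximal 2, the high libraries of HOXC and the highest pair for 11% of all genes tested. The sum of the 8 genes was also highest in distal 3, but proximal 2 was the lowest proximal library for it. A positive log2 fold change was found for 17 of 17 muscle, 4 of 9 Schwann cell and 6 of 11 fibroblast markers tested. It was also found for 5 of 8 limb patterning, 1 of 2 immune and 6 of 9 tumour line markers. Of all these markers, 0 passed edgeR's adjusted threshold. The part of muscle, limb or host reads in the HOX levels was not tested.

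The genes beside the clusters that reached a mean of 1 CPM varied less between libraries than most HOX genes. Most of them were also read at a higher level, where spread is lower, so the comparison is not matched for level. Neighbours under 1 CPM were set aside, although HOX genes under it were kept. Of those neighbours, TTLL6 beside HOXB (mean 0.360 CPM) spanned 14.7-fold. PRAC1 inside HOXB (0.221 CPM) spanned 3.82-fold and ATF7-NPFF beside HOXC (0.451 CPM) 1.72-fold. Next to HOXC, CALCOCO1 (mean 53.9 CPM) and SMUG1 (19.5 CPM) spanned 1.44-fold and 1.36-fold from the lowest to the highest library, and CBX5, a heterochromatin protein, 1.24-fold. Next to HOXB, CALCOCO2 and SNX11 spanned 1.19-fold and 1.24-fold, and PRAC2, which lies between HOXB9 and HOXB13, 1.72-fold. Next to HOXD, LNPK and MTX2 spanned 1.25-fold and 1.12-fold. On the HOXA side the adaptor gene SKAP2 spanned 2.28-fold and HIBADH 1.33-fold. EVX1, the homeobox gene at the end of HOXA, averaged 0.0660 CPM.

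The partners and regulators of HOX genes also gave no call between the regions. All 10 genes of the partner list (PBX, MEIS and PKNOX genes and PBXIP1) were tested, 7 with a positive and 3 with a negative log2 fold change and a median of 0.08, and 0 passed edgeR's adjusted threshold. PBX2 and MEIS2 were the highest, at means of 154 and 114 CPM. The lowest p in this list belonged to MEIS3 (0.29, SE 0.23) and PKNOX2 (1.25, SE 0.96), each as a log2 fold change.

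Of the 32 Polycomb genes, all tested, 18 had a positive and 14 a negative log2 fold change, and of the 26 Trithorax, menin and other activator genes 4 and 22, with 0 calls by edgeR in both lists. Their medians were 0.03 and -0.07. EZH2, the Polycomb methyltransferase, was at 134, 125 and 134 CPM in distal tumour, against 117, 115 and 129 CPM in proximal tumour. KMT2A was at 209, 221 and 236 CPM in distal tumour, against 195, 237 and 271 CPM in proximal tumour. Both regulators were steady beside the HOXC genes. The lowest p among the activators belonged to KMT2C (-0.20, SE 0.10) and EP300 (-0.24, SE 0.12). The list median of the dispersion percentile was 30.9 for Polycomb and 24.5 for the activators, against 95.5 for the HOX genes. Relative to the dispersion trend at each gene's level these medians were 42.0 for Polycomb, 54.5 for the activators and 94.9 for the HOX genes.

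A list of genes that act upstream of HOX genes, retinoic acid breakdown included, or are their homeobox relatives had 22 rows. Of these, 17 were tested, 10 with a positive and 7 with a negative log2 fold change. Their median was 0.01, and 0 passed by edgeR. At an unadjusted p under 0.05 the count was 1 of 17, CYP26B1, against 1.33% of all genes tested. CYP26B1, which degrades retinoic acid, was at 1.06, 0.742 and 1.40 CPM in distal tumour, against 0.426, 0.277 and 0.404 CPM in proximal tumour. Its groups did not overlap, as for 6.28% of all genes tested, with a log2 fold change of 1.5 (SE 0.46) and an unadjusted p of 0.00848 in edgeR's quasi-likelihood test, but its adjusted p was 0.9997. The retinoic acid receptor RARG (mean 81.5 CPM) and its partner RXRB (80.3 CPM) were the highest of the list.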

How the data were processed

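Raw counts of reads by gene symbol were deposited by the authors, made with STAR 2.7.3a and featureCounts 2.0.1 after trimming with Trimmomatic 0.39 on GRCh38, per the submitters' processing notes. No annotation, strand setting or treatment of host reads is named in the sources used here, and 25 HOX genes have exons that overlap another gene, so their counts are uncertain. Counts were fitted in R 4.3.3 with edgeR 4.0.16 (filterByExpr, TMM scaling, robust quasi-likelihood test, group as the only term, Benjamini-Hochberg adjustment at 0.05). CPM were computed here from TMM-scaled sizes, and the SE is the log2 fold change divided by the root of F. Exon lengths came from GENCODE 29, and positions and sequences from RefSeq. Alternatives were other scalings and filters, DESeq2 1.42.0, limma-voom (limma 3.58.1), a replicate block, each library left out, and, chosen after seeing the data, no libraries numbered 3. HOX genes that averaged 1 CPM or more, and the 6 with the lowest p per direction, were named with values. Members, lists and tests were chosen with earlier results of these data known. Tested on simulated data over 13382 genes in 3 runs, the fit recovered 32.3% of genes altered 1.5-fold, 70.1% at 2-fold and 90.4% at 4-fold. It called 56 of 39546 unaltered genes, beside 65, 141 and 179 altered ones at 1.5-fold, 2-fold and 4-fold. The false share of its calls was thus above the threshold of 0.05. The altered genes were drawn from all genes tested, whose median BCV was 14.5%. Median BCVs of the HOX clusters ran from 32.7% to 65.9%, so these rates need not hold for HOX genes. HOX non-coding RNAs were not analysed here. Values of some genes that this rule names are left out of text and figures, though they stay in the counts and sums.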

Additional observations from a re-analysis of the deposited data

How the results depend on the processing

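In all 15 alternatives run, 0 HOX genes passed the test. Over all genes the count was 0 except for 1 under DESeq2 and 0 to 1 with a library left out, the 1 arising without distal 1. The median HOX log2 fold change, 0.12, ranged from -0.45 (without distal 3) to 0.36 when libraries were left out, was -0.54 without the libraries numbered 3 and -0.08 with limma-voom, and lay between 0.09 and 0.15 under other scalings, filters and DESeq2. Named genes that changed sign with a library left out ranged from -0.82 to 0.19 for HOXB9, -1.10 to 0.32 for HOXA11, -0.067 to 1.73 for HOXB5, -0.22 to 0.70 for HOXA5 and -0.45 to 0.72 for HOXA9. Without the libraries numbered 3, HOXB5 was at -0.25, HOXA5 at -0.35 and HOXA9 at -0.61. None of these was called, and their cause was not tested.

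The median dispersion percentile, 95.5 for the HOX genes and 98.6 for HOXC, was 78.0 and 94.5 with no low-count filter, where 38 HOX genes enter, and 87.2 and 97.4 without the libraries numbered 3. It was 88.6 to 95.1 and 98.0 to 98.7 with a library left out, and for HOXC 99.1 with the filter of 1 CPM. With the replicate number as a block, the HOX median log2 fold change was -0.00045, HOXC stood at 99.4, and 0 genes were called. Same-numbered deviations correlated at 0.361, -0.114 and 0.182, and other pairs of a distal and a proximal library between -0.319 and 0.132. Replicate numbers 1 and 3 were thus above every other pair, and number 2 was not. The labels name no pairing, so the main fit used none. Of the 10 highest genes per exon length, 8 stayed among the 10 highest by CPM, by coding length and by unshared exon length. Low counts limit HOXD1, HOXD11, HOXD12, HOXD13 and HOXC5 most, and 3 libraries a region limit all HOXC comparisons.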
